A study of Homo sapiens with 4 samples.

Results

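The ZNF genes encode zinc-finger proteins, and those with enough ribosome footprints to be compared were examined in the human gastric cancer cell line SNU-668. They were taken as the protein-coding genes of the deposited table whose symbol is ZNF, a number and at most 1 further letter, with at least 50 footprints summed over both footprint libraries. This left 137 of 430 listed ZNF genes, in a table of 16692 genes. Members were thus chosen by their summed footprints and not by how these divide between the libraries, but the group was proposed with results of these data known, so everything below is a description without a test.

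The shRNA in the cells targeted ALKBH3, an enzyme that repairs alkylated nucleic acids by oxidising the methyl group away, or was a control, with the genotypes given as ALKBH3 knockdown and WT. The series text calls all of the cells resistant to erastin, a blocker of cystine uptake, while the library names read RLS3, so the compound is uncertain. Each of the 4 libraries stood alone in its group: footprints (3742513 counts) and RNA (689375 counts) from the knockdown-labelled cells, and footprints (3795680 counts) and RNA (554075 counts) from the control cells. Each interval below is a 95% counting interval of these libraries, with no replicate check. PCR reads are not independent molecules, so it covers counting error only. ALKBH3 had 22 footprints in the knockdown-labelled library and 14 in the control library, and 0 RNA counts in both, so its knockdown was not seen in these counts. Of the epithelial markers, KRT18 had 538 and 462 footprints in the knockdown-labelled and control libraries, while KRT8 had 15 and 17, KRT19 had 3 and 4, and EPCAM had 2 and 0. PTPRC and ALB, markers of leukocytes and liver cells, had 0 footprints in both libraries. In RNA, KRT8 had 511 and 208 counts in the knockdown-labelled and control libraries, ALB 0 and 14, and PTPRC 0 and 1.

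Most ZNF proteins carry repeated C2H2 fingers, small folds in which a zinc ion is held by cysteines and histidines and which read DNA bases. Many also carry a KRAB domain, which calls in the corepressor TRIM28 and the histone methyltransferase SETDB1, and such proteins are known for silencing retroelements. A smaller number act on RNA, ribosomes or the spindle. The genes have multiplied by tandem duplication, above all on chromosome 19, so that near-identical stretches occur in many members. The sources used here do not say how reads that fit several copies were counted, and counts of single members are therefore uncertain.

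Neighbours among the measured ZNF genes of chromosome 19, 3 in number, were among those with the largest excess of footprints in the knockdown-labelled library. The 250 bases before the start of each are shown because of that shared position and direction. Between ZNF749 and ZNF419 lies ZNF772, on the minus strand and under the minimum, with 2 footprints in the knockdown-labelled library and 3 in the control library. The sequences are from RefSeq, build GRCh38.p14, on the plus strand, at chr19:57410911-57411160, chr19:57435075-57435324 and chr19:57487500-57487749. Capitals mark the longest run of bases that all 3 share.
ZNF17: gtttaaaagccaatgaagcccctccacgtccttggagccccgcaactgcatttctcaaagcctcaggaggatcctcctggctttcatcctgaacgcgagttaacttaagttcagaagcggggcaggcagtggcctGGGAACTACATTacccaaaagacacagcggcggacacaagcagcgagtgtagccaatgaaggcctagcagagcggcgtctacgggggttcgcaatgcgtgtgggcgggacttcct
ZNF749: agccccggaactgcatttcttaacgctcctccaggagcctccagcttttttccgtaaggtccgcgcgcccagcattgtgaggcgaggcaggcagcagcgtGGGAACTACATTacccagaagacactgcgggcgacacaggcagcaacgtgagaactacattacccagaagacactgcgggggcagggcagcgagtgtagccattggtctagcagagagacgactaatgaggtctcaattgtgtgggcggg
ZNF419: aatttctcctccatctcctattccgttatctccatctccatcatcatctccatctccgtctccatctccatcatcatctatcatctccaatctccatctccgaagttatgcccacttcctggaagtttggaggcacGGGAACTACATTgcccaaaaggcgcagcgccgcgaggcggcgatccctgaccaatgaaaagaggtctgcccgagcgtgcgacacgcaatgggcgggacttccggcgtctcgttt

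The shared run is 12 bases long and begins 115, 150 and 114 bases before the starts of ZNF17, ZNF749 and ZNF419. Since the run was taken from these 3 promoters, its presence in them was fixed in advance. On either strand, no other of the 113 ZNF promoters with a sequence held it. It occurred in 12 of 27305 promoters of the same length in all (0.0439%), these 3 included. No such run was sought in other neighbouring ZNF genes, so whether it goes with higher footprints was not tested. ZNF17 and ZNF749 share a longer stretch of 18 bases around it. Among the 113 ZNF promoters, GGGCGG, the box read by SP1, was found on either strand in 68.1%, against 70.4% of 6391 promoters of other measured protein-coding genes and 42.3% of all promoters. CCGGAAG, a form of the ETS site, was found in 34.5%, against 16.8% of the other measured genes and 8.82% of all promoters. CCAAT was found in 42.5%, against 34.6% and 33.0%, and TGATGNAA, a core of the ATF4 response element, in 3.54%, against 1.33% and 3.19%. None of these motifs contains another, and a match is a description of the sequence only.

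Per unit of gene length the ZNF genes had few footprints. Their median footprint RPKM, the authors' reads per length of gene at equal library size, was 4.95 in the knockdown-labelled library and 4.40 in the control library, against 21.3 and 19.3 for the 8220 other protein-coding genes with at least 50 footprints. Those genes were better counted, with a median of 318.5 footprints over both libraries against 108. At like count the gap was smaller. In the knockdown-labelled library the medians were 3.47 for ZNF genes against 5.99 from 50 to 99 footprints. From 100 to under 200 footprints they were 5.84 against 9.96. The ZNF footprint RPKM ran from 0.973 to 79.9 in the knockdown-labelled library and from 0.694 to 66.7 in the control library. ZNF593, whose yeast counterpart helps mature the large ribosomal subunit, stood at 79.9 and 59.7 RPKM in the knockdown-labelled and control libraries. ZNF706, a small protein, stood at 74.4 and 57.0 RPKM. ZNF207, a spindle and kinetochore protein that binds BUB3, stood at 54.8 and 66.7 RPKM, below the other 2 in the knockdown-labelled library and above them in the control library. Between the libraries the RPKM values of the 137 genes correlated at 0.930 (Spearman), a description across genes, which are no replicates. The 10 genes with the most footprints held 29.5% of all ZNF footprints, and the whole group took 0.326% of the footprints of the knockdown-labelled library and 0.295% of those of the control library.

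The typical ZNF gene differed little between the libraries, while those beyond counting error lay mostly on the higher side. The median log2 ratio of footprints, knockdown-labelled over control, was 0.05 over the 137 genes and -0.01 over all 8363 genes tested. The middle part of the ZNF genes, from the lower to the upper quartile, ran from -0.22 to 0.35, and between the extremes from -0.88 to 1.23. Intervals lay above 0 for 27 ZNF genes (19.7%), where 17.1% of all genes tested did so. Intervals lay below 0 for 5 ZNF genes (3.65%), where 19.8% of all genes tested did so. The other 105 intervals held 0. At least 2-fold apart with an interval leaving out 0 were 6 ZNF genes higher and 0 lower, where the share of all genes tested was 1.45% higher and 0.646% lower. Among other protein-coding genes at the same mix of counts it was 2.57% higher and 1.23% lower, and from 50 to 99 footprints, where all 6 lie, 4.24% were higher. The deposited RPKM in place of scaled counts gave 40 intervals above 0 and 2 below, where 27.5% and 11.8% of the other protein-coding genes did so (20.5% and 6.35% at like count). The 114 ZNF genes that overlap no opposite-strand gene of the table had 24 intervals above 0 and 4 below, but the share of other genes without such an overlap was not computed.

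The comparison with genes of like count asked whether low counts alone set these shares, since counting error widens as counts fall. With the other protein-coding genes weighted to the ZNF genes' spread over 4 count classes, 12.7% of their intervals lay above 0 and 10.6% below, 23.4% in all. The ZNF genes had nearly the same total, 23.4%, divided as 19.7% above and 3.65% below. The medians did not show this: the ZNF median minus that of other genes of like count was -0.003 on the log2 scale. The lopsided share was seen in each count class. From 50 to 99 footprints, 11 of 64 ZNF intervals (17.2%) lay above 0 and 1 below (1.56%), against 10.7% and 6.25% of 1249 other genes. From 100 to under 200 footprints, 6 of 44 (13.6%) lay above and 1 below (2.27%), against 12.1% and 10.5% of 1651 other genes. From 200 to under 400 footprints, 6 of 19 (31.6%) lay above and 2 below (10.5%), against 16.2% and 14.3% of 1813 other genes. At 400 or more footprints, 4 of 10 lay above and 1 below, against 22.0% and 32.4% of 3507 other genes. The spread of the ZNF log2 ratios in the lowest class, a standard deviation of 0.52, was near the 0.53 of other genes of that class, with a median counting error of 0.35 and 0.34. No resampling was done to set a range for these shares, and genes that share reads are not independent.

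**Figure D1:**
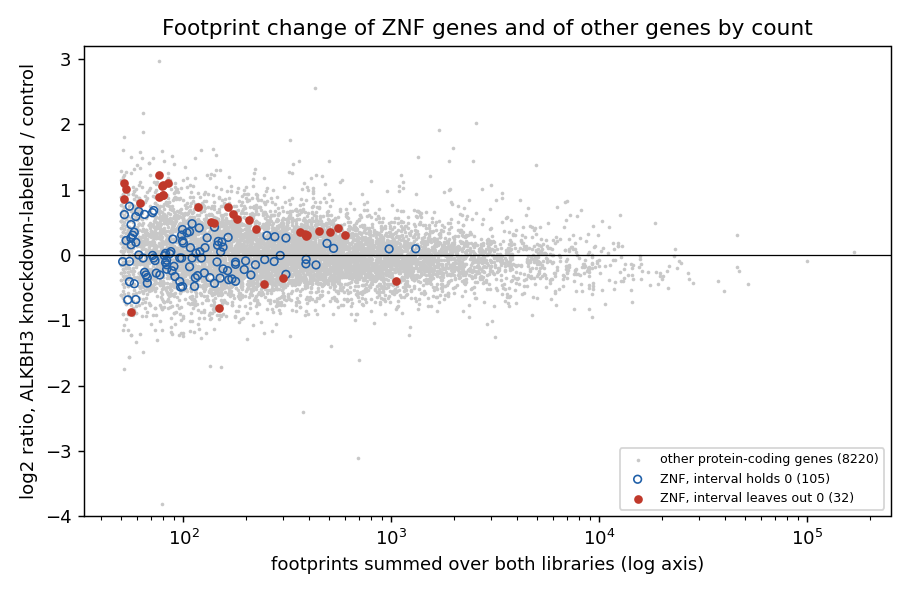
Each point is 1 gene, with footprints summed over both libraries on a log axis and the log2 ratio of knockdown-labelled over control footprints. Of the 137 ZNF genes, 105 have a counting interval that holds 0 (open blue) and 32 do not (filled red), 27 of these above 0 and 5 below, while the 8220 other protein-coding genes are in grey.

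**Figure D2:**
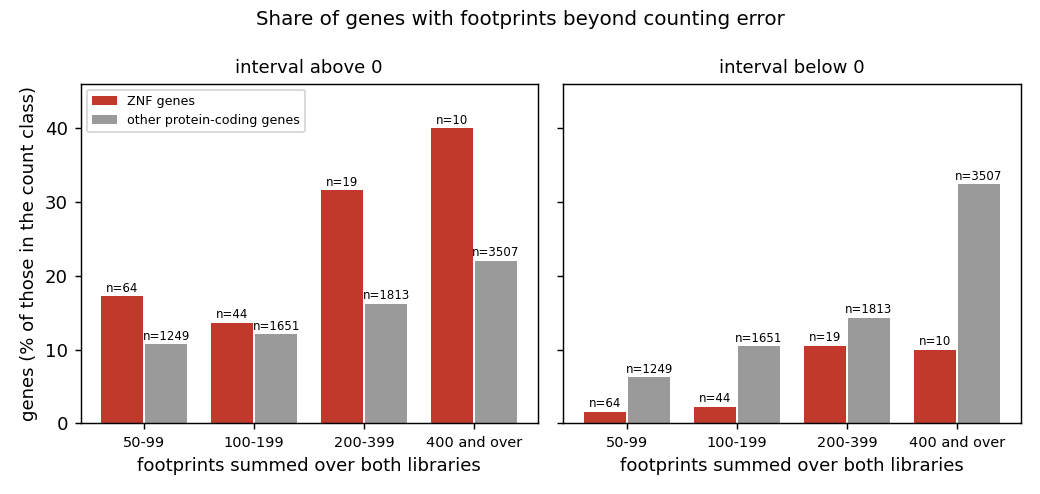
Bars give the percentage of genes in each count class whose counting interval lay above 0 (left) or below 0 (right), for ZNF genes (red) and other protein-coding genes (grey), with the number of genes above each bar. In all 4 classes the red bar is the higher on the left and the lower on the right.

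The 6 ZNF genes at least 2-fold higher each had between 36 and 58 footprints in the knockdown-labelled library and between 16 and 26 in the control library. ZNF17 (ENSG00000186272, hg19 chr19:57922547-57933171, plus strand) had 54 footprints in the knockdown-labelled library and 22 in the control library, a log2 ratio of 1.23 (interval 0.52 to 1.94). ZNF581 had 58 and 26 footprints, a log2 ratio of 1.10 (0.43 to 1.76). Its span holds that of ZNF580 on the same strand, which had 55 and 43 footprints, at 0.30 (-0.27 to 0.88). How reads within both spans were assigned is not stated. ZNF146, a protein made almost wholly of fingers, had 55 and 25 footprints, at 1.08 (0.40 to 1.75), and a gene of the opposite strand overlaps it. For each of ZNF17, ZNF581 and ZNF146 the knockdown-labelled library held the higher count. ZNF419 (hg19 chr19:57999090-58006016) had 54 and 25 footprints, at 1.05 (0.37 to 1.73). ZNF398, on chromosome 7, had 36 and 16 footprints, at 1.10 (0.26 to 1.94), and ZNF347 had 36 and 17, at 1.01 (0.19 to 1.84). These intervals are wide, since they rest on few reads. With a prior count of 5 in place of 0.5, which draws thin ratios toward 0, 1 of the 137 genes was at least 2-fold higher.

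Among the other ZNF genes of the 12 furthest higher by the interval bound nearest 0 was ZNF486, with 103 footprints in the knockdown-labelled library and 60 in the control library, a log2 ratio of 0.73 (0.27 to 1.19). ZNF717 and ZNF749 each had 53 footprints in the knockdown-labelled library and 27 in the control library, at 0.91 (0.25 to 1.58), though they lie on chromosomes 3 and 19. ZNF319 had 50 and 26 footprints, ZNF354A had 74 and 43, and ZNF655 had 107 and 67, at 0.88, 0.73 and 0.62. Of the 12 genes furthest higher, 7 lie on chromosome 19, which holds 45 of the 137 measured ZNF genes. Of the 12 furthest lower, ZNF430, ZNF574 and ZNF880 lie there. The ZNF genes of chromosome 19 were also thinner, with a median of 82 footprints over both libraries against 135 on other chromosomes.

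Intervals lay below 0 for 5 ZNF genes, none of them at least 2-fold lower. ZNF394, a KRAB protein, had 55 footprints in the knockdown-labelled library and 94 in the control library, a log2 ratio of -0.81 (-1.29 to -0.34). ZNF207 (hg19 chr17:30677136-30708905, plus strand) had 464 and 594 footprints, at -0.40 (-0.58 to -0.23). It is the best counted of the 5. ZNF430 had 20 and 36 footprints, at -0.88 (-1.66 to -0.10), ZNF445 had 105 and 138, at -0.44 (-0.80 to -0.07), and ZNF574 had 135 and 167, at -0.35 (-0.68 to -0.03). The next 7 in that direction, ZNF503, ZNF24, ZNF830, ZNF697, ZNF880, ZNF669 and ZNF337, lay between -0.68 and -0.30 with intervals that held 0.

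**Figure D3:**
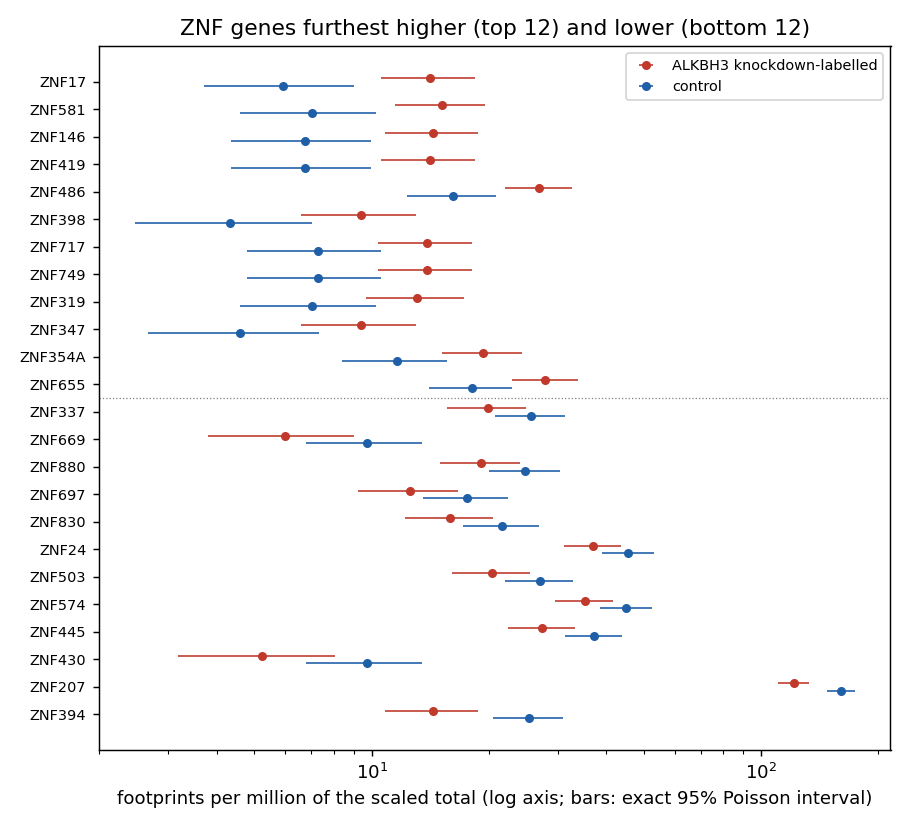
Footprints per 1000000 of the scaled total, on a log axis, with exact 95% Poisson intervals, in the knockdown-labelled (red) and control (blue) library for the 12 ZNF genes furthest higher (above the dotted line) and the 12 furthest lower (below it), ranked by the interval bound nearest 0. ZNF17, at 54 and 22 footprints, heads the upper part, and ZNF394, at 55 and 94, stands at the foot.

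The 10 best counted ZNF genes had log2 ratios between -0.40 and 0.41. Of their intervals, 4 lay above 0, 1 lay below and 5 held 0. Of other protein-coding genes with at least 400 footprints, 22.0% lay above and 32.4% below. ZNF217, an oncogene of epithelial tumours that works with corepressor complexes, had the most footprints, 686 in the knockdown-labelled library and 622 in the control library, a log2 ratio of 0.09 (-0.06 to 0.25). ZNF106, an RNA-binding protein, had 511 and 464 footprints, at 0.09 (-0.09 to 0.27). Both intervals held 0. ZNF451, a SUMO ligase, had 321 and 233 footprints, at 0.41 (0.17 to 0.66). ZNF713 had 334 and 261, at 0.31 (0.08 to 0.54), and ZNF460 had 258 and 193, at 0.37 (0.10 to 0.64). Of the 10 genes with the most footprints, 8 had ratios above 0 and ZNF207 and ZNF622 had ratios below 0.

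Members that act on ribosomes were all 3 measured. ZNF598, the ubiquitin ligase that marks collided ribosomes, had 76 footprints in the knockdown-labelled library and 87 in the control library, a log2 ratio of -0.24 (-0.68 to 0.20). ZNF622, whose yeast counterpart also works on the large ribosomal subunit, had 209 and 225 footprints, at -0.15 (-0.42 to 0.12). ZNF593 had 219 and 172 footprints, at 0.30 (0.01 to 0.59), the only one of the 3 whose interval left out 0.

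Of members that bind RNA or the spindle, 6 of 8 listed were measured, with a median log2 ratio of -0.22. ZNF207 had the only interval that left out 0. ZNF830, of the spliceosome, had 61 footprints in the knockdown-labelled library and 80 in the control library, at -0.44 (-0.91 to 0.04). ZNF326, of a complex that joins elongation and splicing, had 35 and 42, at -0.31 (-0.95 to 0.34), and ZNF638 had 188 and 200, at -0.14 (-0.42 to 0.15). ZNF706 had 72 and 58 footprints, at 0.26 (-0.23 to 0.76).

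A list of 22 members with known roles in transcription or chromatin, chosen with earlier results known, was measured in full, with a median log2 ratio of 0.10. Intervals lay above 0 for 6 of them and below 0 for none, where 17.1% and 19.8% of all genes tested did so. The list had a median of 137 footprints over both libraries and ran from 56 to 1308. Of other protein-coding genes, 10.7% lay above 0 and 6.25% below from 50 to 99 footprints. From 100 to under 200 footprints the shares were 12.1% and 10.5%, and from 200 to under 400 they were 16.2% and 14.3%. At 400 or more they were 22.0% and 32.4%. A share weighted to the counts of this list was not computed. ZNF687, which works in a chromatin complex with ZMYND8, had 109 footprints in the knockdown-labelled library and 72 in the control library, at 0.55 (0.12 to 0.98). Its partner proteins ZNF592 and ZNF532 were at 0.41 (-0.11 to 0.94) and -0.22 (-0.84 to 0.40). ZNF281 and ZNF148, which bind GC-rich promoters, had 288 and 218 footprints in the knockdown-labelled library and 218 and 168 in the control library, at 0.35 (0.10 to 0.61) and 0.33 (0.04 to 0.62). ZNF827, which brings the NuRD complex to telomeres, had 83 and 57 footprints, at 0.49 (0.01 to 0.98), and ZNF292 had 218 and 172, at 0.29 (0.01 to 0.58). ZNF146, above, was the sixth. ZNF410, an activator of CHD4, had 42 and 57 footprints, at -0.48 (-1.05 to 0.09), and ZNF143, an activator that binds many promoters, had 59 and 56, at 0.03 (-0.50 to 0.55).

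The retroelement repressors ZNF91 and ZNF93 were under the minimum. ZNF91 had 17 footprints in the knockdown-labelled library and 7 in the control library, and ZNF93 had 10 and 6. Their intervals, -0.06 to 2.41 and -0.77 to 2.06, held 0. ZNF185, a LIM-domain protein of the cytoskeleton, had 3 and 4 footprints.

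Position on chromosome 19 was examined because it holds 212 of the 430 listed ZNF genes and 45 of the 137 measured. The median log2 ratio of footprints was 0.02 for these 45 and 0.05 for the 92 on other chromosomes. Intervals lay above 0 for 10 of the 45 (22.2%) and below 0 for 2 (4.44%). The 454 other protein-coding genes of chromosome 19 with at least 50 footprints had a median of -0.14, with 8.81% of intervals above 0 and 30.8% below. At like counts, from 50 to 99 footprints, 7 of 32 ZNF genes of chromosome 19 had intervals above 0 and 1 below, against 4 and 5 of 62 other genes of the chromosome. There the medians were 0.23 and -0.06. From 100 to under 200 footprints the medians were -0.11 for 9 ZNF genes and -0.14 for 89 other genes of the chromosome. With at least 100 footprints, the chromosome 19 ZNF median lay 0.21 below that of ZNF genes elsewhere, where it was 0.03 below with at least 50.

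Along the chromosome, ZNF genes less than 500000 bases apart were joined into runs, a grouping chosen after values were seen. The run at the end of the long arm (hg19 chr19:57702868-58992597) holds 38 listed ZNF genes, 10 of them measured. Summed over these 10 there were 677 footprints in the knockdown-labelled library and 506 in the control library, a log2 ratio of 0.37 (0.21 to 0.54). Intervals lay above 0 for 5 of the 10, namely ZNF460, ZNF17, ZNF749, ZNF419 and ZNF776, and below 0 for none, where 17.1% and 19.8% of all genes tested did so. Most of the 10 had 50 to 99 footprints, where 10.7% and 6.25% of other protein-coding genes did so. ZNF776 had 40 footprints in the knockdown-labelled library and 22 in the control library, at 0.80 (0.06 to 1.54). The intervals of the other 5 held 0: ZNF264 had 61 and 61 footprints, ZNF805 had 41 and 40, ZNF304 had 29 and 24, ZNF544 had 36 and 36, and ZNF274, which guides SETDB1 to the ends of ZNF genes themselves, had 51 and 56. Without ZNF17, ZNF749 and ZNF419 the remaining 7 summed to 516 and 432 footprints, at 0.21 (0.03 to 0.39). The 28 listed ZNF genes of the run under the minimum summed to 291 and 253, at 0.15 (-0.09 to 0.40). Without this run, 22 intervals lay above 0 and 5 below among 127 ZNF genes. Over the 15 runs with at least 5 listed and 1 measured ZNF gene, the summed log2 ratios ran from -0.43 (1 measured gene) to 0.42 (0.01 to 0.83, 3 measured genes), and another run of chromosome 19 with 5 measured genes was at -0.04 (-0.30 to 0.22).

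**Figure D4:**
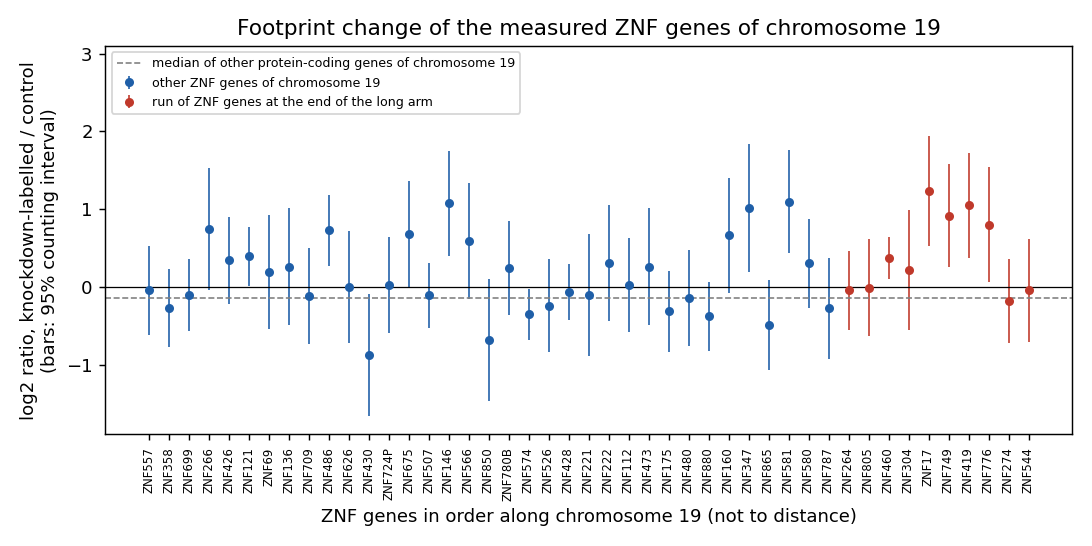
Log2 ratio of footprints with its 95% counting interval for the 45 measured ZNF genes of chromosome 19, in their order along the chromosome, with the run at the end of the long arm in red and the median of other protein-coding genes of the chromosome, -0.14, as a dashed line. ZNF17, ZNF749, ZNF419 and ZNF776 stand next to each other in the plot, all above 0.

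Just inside the minimum stood ZNF221, with 25 footprints in the knockdown-labelled library and 26 in the control library, ZNF398, with 36 and 16, and ZNF449, with 32 and 20. Just outside it, at 49 footprints each, stood ZNF543, with 27 and 22, ZNF550, with 30 and 19, and ZNF551, with 22 and 27. In all, 293 listed ZNF genes were under the minimum, 23 of them with no footprint, which left 31.9% of the listed ZNF genes measured, against 60.9% of 13504 other protein-coding genes.

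Among thinly counted ZNF genes the excess in the knockdown-labelled library was larger than among the measured ones. Summed over the 293 genes under the minimum, footprints were 2874 in the knockdown-labelled library and 2394 in the control library, a log2 ratio of 0.22 (0.14 to 0.30). Summed over the 137 measured genes they were 12210 and 11194, or 3188 and 3018 counts per 1000000 of the scaled total (Poisson intervals 3131 to 3245 and 2963 to 3075), at 0.08 (0.04 to 0.12). From 25 to 49 footprints, 97 ZNF genes summed to 1933 and 1645, at 0.19 (0.09 to 0.28), where 927 other protein-coding genes were at 0.02 (-0.01 to 0.06). From 10 to 24 footprints, 72 ZNF genes were at 0.26 (0.10 to 0.42), where 903 other genes were at 0.05 (0.003 to 0.10). From 1 to 9 footprints, 101 ZNF genes were at 0.34 (0.07 to 0.61), where 2213 other genes were at 0.05 (-0.02 to 0.12). These sums carry counting error alone, and whether reads shared between copies enter them was not tested.

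Related families were set beside the ZNF genes. The 28 measured ZBTB genes, which join fingers to a BTB domain, had a median log2 ratio of 0.17, with 6 intervals above 0 (21.4%) and 2 below (7.14%), where 17.1% and 19.8% of all genes tested did so. The 17 KLF and SP genes, which bind GC-rich boxes, were at 0.14, with 5 above (29.4%) and 1 below (5.88%). The ZBTB and the KLF and SP genes had medians of 114 and 122 footprints over both libraries, with most at 872 and 1303. From 100 to under 200 footprints, 12.1% of other protein-coding genes lay above 0 and 10.5% below. At 400 or more the shares were 22.0% and 32.4%. Shares weighted to the counts of each family were not computed. The 8 ZFP genes were at 0.18, with 0 intervals above and 0 below. The 10 ZSCAN and ZKSCAN genes, with a SCAN domain beside the fingers, were at -0.27, with 1 above and 2 below. The 14 ZC3H genes, whose CCCH fingers bind RNA, were at -0.002, with 0 above and 3 below. These families share no member with the ZNF genes, and no difference between them was tested.

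The partners through which KRAB proteins silence chromatin were set beside the ZNF genes. Of 38 corepressors and silencing factors, 33 were measured, with a median log2 ratio of -0.07, and 1 interval above 0 (3.03%) and 10 below (30.3%), where 17.1% and 19.8% of all genes tested did so. These genes are well counted, with a median of 516 footprints over both libraries, from 71 to 4997. Among other protein-coding genes with at least 400 footprints the shares were 22.0% above and 32.4% below. The list's share below 0 was near the latter, while its share above 0, 3.03%, was well under the former. With the deposited RPKM this median was 0.05, but that scaling raised the median of all genes from -0.01 to 0.11. Relative to the median of all genes the list lay at -0.06 under either, as a shift common to all genes leaves it. TRIM28, the scaffold that binds KRAB domains, had 2257 footprints in the knockdown-labelled library and 2740 in the control library, at -0.33 (-0.41 to -0.25). CBX1, a heterochromatin protein, had 510 and 806, at -0.71 (-0.87 to -0.55), and its relatives CBX3 and CBX5 were at -0.22 (-0.41 to -0.03) and -0.26 (-0.51 to -0.002). CHD4, the NuRD remodeller, had 1491 and 1731, at -0.26 (-0.36 to -0.16). SETDB1 had 189 and 176, at 0.06 (-0.24 to 0.35), and RBBP7, a histone chaperone, had the interval above 0, at 0.16 (0.07 to 0.26). TRIM28 and ZNF genes were thus counted at very different levels, 147 and 170 RPKM for TRIM28 beside medians of 4.95 and 4.40 RPKM for the ZNF genes.

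RNA counts could be compared for few ZNF genes. Of the 137, 48 (35.0%) had 0 RNA counts in both libraries, against 26.7% of the other protein-coding genes with at least 50 footprints, and the median over both libraries was 1 count for the ZNF genes and 2 for the others. Only ZNF263, ZNF3 and ZNF337 reached 100 RNA counts. ZNF263 had 143 RNA counts in the knockdown-labelled library and 111 in the control library, a log2 RNA ratio of -0.07 (-0.43 to 0.28), beside 36 and 37 footprints. ZNF3 had 90 and 97 RNA counts, at -0.55 (-0.96 to -0.13), beside 62 and 58 footprints. ZNF337 had 56 and 73 RNA counts, at -0.82 (-1.32 to -0.32), beside 76 and 95 footprints. All genes tested in RNA, 1311 in number, had a median of -0.13, and 30.2% of their intervals lay below 0. ZNF337-AS1, on the opposite strand of ZNF337, had 1114 and 958 RNA counts and no footprint, and the sources used here do not say how strand was treated in counting. The log2 change of the ratio of footprints to RNA, called translational efficiency, was -0.01 (-0.76 to 0.74) for ZNF263, 0.59 (-0.07 to 1.25) for ZNF3 and 0.45 (-0.21 to 1.11) for ZNF337. All 3 intervals held 0, where 22.6% of 434 genes tested lay above 0 and 19.8% below. Genes well counted in footprints were often nearly absent from the RNA counts. TRIM28, with 2257 footprints in the knockdown-labelled library and 2740 in the control library, had 9 and 3 RNA counts. Whether the RNA counts follow the mRNA of these genes was not tested, so the ratios are not read as a change of translation.

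Whether RNA moved with the footprints of the leading members could not be seen. ZNF17, ZNF419 and ZNF581 had 0 RNA counts in both libraries, ZNF749 had 1 and 0, and ZNF146 had 0 and 1. ZNF207 had 2 RNA counts in the knockdown-labelled library and 0 in the control library, beside 464 and 594 footprints. The RNA counts of all 137 ZNF genes summed to 621 in the knockdown-labelled library and 532 in the control library, a log2 ratio of -0.21 (-0.38 to -0.05), beside 0.08 (0.04 to 0.12) for their summed footprints and a median of -0.13 for all genes tested in RNA. Without ZNF263, ZNF3 and ZNF337, which held much of that RNA, the others summed to 332 and 251, at -0.03 (-0.27 to 0.20). With so few RNA counts per gene, these sums beside the footprints are not read as a change of translation.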

How the data were processed

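Ribosome footprints and RNA were counted in 1 library per group. Per the submitters' processing notes, FastQC, cutadapt, Bowtie and STAR and the hg19 genome were used, without roles or versions, and the sources used here do not name the gene counter. The counts per gene are as the authors deposited them, and the RPKM values are the authors' own. Groups came from the genotype labels and assays from the titles.

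Log2 ratios of knockdown-labelled over control counts were computed over the whole table after adding 0.5 to each count, with library totals adjusted by TMM (edgeR 4.0.16, R 4.3.3), with factors of 1.02 and 0.977 for footprints and 1.04 and 0.958 for RNA. Intervals at 95% come from counting error. The calculation was tested on simulated Poisson counts at plain library totals. That is the error the intervals assume, so the test checks the calculation only and says nothing of the spread between real libraries. With 1 library per group there is no test and no p-value. RNA ratios needed 100 counts. Figures used matplotlib 3.10.9. ZNF members, lists and named genes were chosen with earlier results of these data known: the 12 higher and the 12 lower genes whose nearer interval end lay furthest from 0, the 10 best counted, those near the minimum, those with 100 RNA counts, and a list by role. The runs of genes on chromosome 19 and their promoters were chosen after values were seen. Of 430 listed ZNF identifiers, 425 are in the gene name table. For promoters, the first listed start of each gene was used.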

Additional observations from a re-analysis of the deposited data

How the results depend on the processing

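With single libraries, no alternative can measure the spread between cultures, and the thin counts of most ZNF genes limit what could be seen. The median of measured ZNF genes relative to all genes was 0.06 with TMM, plain totals, DESeq2 1.42.0 size factors and RPKM. A change of scaling shifts all genes by nearly the same amount, so that agreement was fixed in advance. With a prior count of 5 the relative median was 0.05. None of the 228 values of single named genes under these scalings and that prior left its interval. The shifts are small beside the intervals, so this says little about the stability of single genes. Intervals above and below 0 were 36 and 4 with totals, 28 and 5 with size factors and 40 and 2 with RPKM, where the shares of other protein-coding genes were 22.8% and 15.3%, 18.7% and 18.7%, and 27.5% and 11.8%. Of the 32 calls, 29 to 32 were shared with the alternatives. The number at least 2-fold higher was 1 with a prior count of 5, 0 at 100 footprints, 14 at 20 footprints and at 1 footprint, and 14 with a 1.5-fold minimum, and the number lower was 1 at 20 footprints, 4 at 1 footprint and 2 with a 1.5-fold minimum. Intervals above 0 were 16 at 100 footprints, and intervals below 0 were 10 at 1 footprint, as the number of genes changed from 137 to 73, 260 or 407. The shares of other genes called at these minimums and folds were not computed, so these counts do not set ZNF genes apart from others. At 1 footprint the median stood 0.21 above other genes of like count. The difference of chromosome 19 from other chromosomes was -0.21 at 100 footprints, and the corepressor median was 0.0475 with RPKM. The log2 ratio of the summed footprints was 0.15 with plain totals, and the median RNA ratio was 0.46 over 89 genes at 1 RNA count, against -0.55 over 3. The causes were not tested. Subgroups by KRAB motif and finger number, and members without shared protein stretches, were not run, since no protein sequences were used here. Replicates could not be left out. No paired analysis was possible because each group holds 1 library.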
